A study of Mus musculus with 6 samples.

Results

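Igha, Igkc, Jchain, Cd79a and Lyz2 are transcripts of cells other than T cells, read here in RNA from mouse CD4+ T cells. Their rows were found by gene symbol from the Ensembl identifiers, and 5 of 5 genes had a row among the 13685 rows of the tables. Each of the 5 also passed the filter on low counts that left 3613 genes for testing. The genes were chosen by their measured levels per library, so these levels are a description and carry no test. The difference between the treatments played no part in the choice and was tested over all genes.

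All cells were wild type (WT) CD4+ cells of C57BL/6 mice, taken from spleen and mesenteric lymph node, isolated with a CD4+ T cell isolation kit and without the CD25+ regulatory T cells. They were cultured for 4 h, either with tunicamycin at 0.15 µg/mL or as controls, which the treatment label calls Vehicle and the titles call untreated. Each group had 3 libraries, numbered 1 to 3 and described as technical replicates. A p-value here reflects how far such libraries scatter and not how far animals do. The labels used here give no age, no number of mice and no statement on whether animals were pooled. The rows used summed to 7412116 to 11211225 counts per library and hold only part of the transcriptome.

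Plasma cells are the antibody-secreting end stage of the B cell lineage. In tissue that drains the gut, many of them make IgA, which is secreted as a dimer held together by the J chain. B cells before that stage carry the antibody as a membrane receptor that signals through a pair of proteins, one of them encoded by Cd79a, whose expression falls as plasma cells mature. Macrophages and other myeloid cells store lysozyme, encoded in mouse mainly by Lyz2. A resting CD4+ T cell is not known as a source of these proteins.

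On build GRCm38, Igha (ENSMUSG00000095079) lies on chromosome 12 from 113254830 to 113260236 on the minus strand and encodes the constant region of the IgA heavy chain. Igkc (ENSMUSG00000076609), the constant region of the kappa light chain, lies on chromosome 6 from 70726435 to 70726966. Jchain (ENSMUSG00000067149) lies on chromosome 5 from 88519809 to 88527891, and Cd79a (ENSMUSG00000003379) on chromosome 7 from 24897381 to 24902197. Lyz2 (ENSMUSG00000069516) lies on chromosome 10 from 117277331 to 117282321. These positions are from the GENCODE M21 annotation and were not converted to the build named in the submitters' processing notes.

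The annotation gives Igha 2 transcripts, which share their first 972 bases and then end in different ways. The shorter, of 1100 bases, ends in the tail of the secreted antibody, the part to which the J chain attaches. The longer, of 2540 bases, continues into the exon of the membrane-bound form. Their first 62 bases after the shared part are shown because they tell the secretory product of a plasma cell from the receptor of a B cell, at chr12:113258768-113258829 and chr12:113256336-113256397 on the minus strand of GRCm38. The capitals mark the stop codon of the secreted form.
Igha-201, secreted: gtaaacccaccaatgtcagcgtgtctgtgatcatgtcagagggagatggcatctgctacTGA
Igha-202, membrane: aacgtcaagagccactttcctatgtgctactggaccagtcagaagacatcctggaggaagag

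Lyz2 has a near copy beside it, Lyz1, which is the form of the Paneth cells of the gut. Over the 447 coding bases the genes differ at 22, so they are 95.1% identical. Their first 60 coding bases are printed to show how little separates the reads of one from those of the other, at chr10:117282183-117282242 for Lyz2 and chr10:117292779-117292838 for Lyz1 on the minus strand of GRCm38, with the 2 differing bases in capitals.
Lyz2: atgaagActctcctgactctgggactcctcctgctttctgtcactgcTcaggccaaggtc
Lyz1: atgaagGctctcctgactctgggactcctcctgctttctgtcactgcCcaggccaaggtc

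Igha was the clearest case of a level that followed the number of the library. It stood at 77.8, 152 and 18.6 TPM in vehicle libraries 1, 2 and 3. In tunicamycin libraries 1, 2 and 3 it stood at 86.8, 160 and 21.5 TPM. The libraries numbered 2 were highest, those numbered 1 in between and those numbered 3 lowest, and the groups overlapped almost completely. The estimated counts behind these levels ran from 704 to 6803. The coefficient of variation of the CPM of Igha over the 6 libraries was 69.8%, and the part that counting contributes at these counts is 1.79%.

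Igkc, the light chain constant region that pairs with heavy chains of any class, was the most abundant of the 5 transcripts per length in every library. It measured 104, 245 and 38.2 TPM in vehicle libraries 1, 2 and 3. In tunicamycin libraries 1, 2 and 3 it measured 105, 263 and 27.0 TPM. The order of the libraries was that of Igha. The level of Igkc divided by that of Igha, in TPM, lay between 1.21 and 2.05 in all 6 libraries, while either level alone varied 8.56-fold (Igha) or 9.73-fold (Igkc) from lowest to highest.

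Jchain, whose product joins antibody units into dimers, was at 14.1, 31.0 and 2.74 TPM in vehicle libraries 1, 2 and 3. The values in tunicamycin libraries 1, 2 and 3 were 14.5, 30.6 and 4.61 TPM. This was the widest relative spread of the 5 genes, 11.3-fold in TPM. Jchain divided by Igha nevertheless stayed between 0.147 and 0.215 in TPM over all libraries. Together Igha, Igkc and Jchain took up 0.0142% to 0.111% of the counts of a library.

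Lyz2 had the same order of libraries with a smaller spread. It was at 7.30, 8.52 and 2.94 TPM in vehicle libraries 1, 2 and 3. It was at 7.11, 10.4 and 3.55 TPM in tunicamycin libraries 1, 2 and 3. The libraries numbered 1 and 2 were closer together than for the antibody genes, and those numbered 3 were again the lowest. Lyz1 was listed at 0 in 5 libraries and at 2 counts in tunicamycin replicate 1, where Lyz2 had 271, but with 95.1% identity the division of reads between the copies is uncertain.

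Cd79a, the signalling partner of the B cell receptor, was near the lower limit of what these libraries could show, with 39 to 71 counts each. It was at 0.886, 1.05 and 1.07 TPM in vehicle libraries 1, 2 and 3. In tunicamycin libraries 1, 2 and 3 it was at 0.701, 0.661 and 1.13 TPM. It did not have the order of the other genes: the libraries numbered 3, lowest for the antibody genes and Lyz2, were the highest for Cd79a in each group. In vehicle this ranking was within counting error. Cd79a was at 6.268 CPM (exact Poisson 95% interval 4.606 to 8.335) in vehicle replicate 2 and 6.536 CPM (4.988 to 8.413) in vehicle replicate 3. The coefficient of variation of its CPM was 23.5%, and the counting part at these counts is 14.1%.

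**Figure D1:**
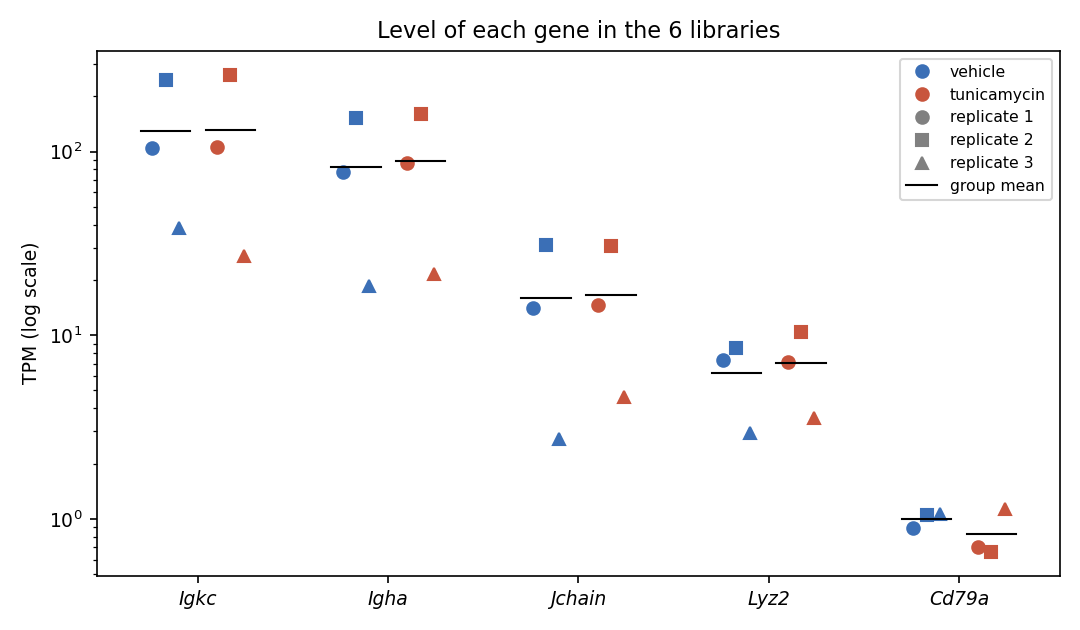
Level of each gene in TPM (log axis) in the 6 libraries; symbol shape gives the replicate number, colour the group and the black line the group mean. Squares (replicates numbered 2) are highest and triangles (numbered 3) lowest for Igkc, Igha, Jchain and Lyz2, while Cd79a stays between 0.661 and 1.13 TPM.

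By mean TPM over the 6 libraries the genes ranked Igkc (130), Igha (86.1), Jchain (16.3), Lyz2 (6.63) and Cd79a (0.915). Igkc was above Igha within each of the 6 libraries, although the spread of each gene over the libraries was wider than the gap between their means: in vehicle Igkc was at 129 ± 106 TPM and Igha at 82.9 ± 67.0 TPM (SD, n = 3 each). Jchain at 15.9 ± 14.2 TPM and Lyz2 at 6.25 ± 2.94 TPM (SD, n = 3 each) also overlapped, and in vehicle replicate 3 Lyz2 was above Jchain. Cd79a at 0.999 ± 0.0986 TPM (SD, n = 3) lay below the other 4 in every library. A low level in such bulk RNA can come from fewer cells of a type or from less RNA per cell, which cannot be told apart here.

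The profiles were compared on log2 CPM, the log2 of counts relative to the TMM-scaled library size with a prior count of 2. Igha, Igkc, Jchain and Lyz2 had the libraries in the order 2, 1, 3 in both groups, an order that 4.04% of the 3613 tested genes had. Any order shared by the groups was found for 21.9%. This pattern entered the choice of the genes, and nothing is read from these shares. From highest to lowest library the range was 2.95 for Igha, 3.21 for Igkc, 3.42 for Jchain, 1.71 for Lyz2 and 0.80 for Cd79a, beside a median of 0.55 over all genes tested. Of the 2462 genes that averaged 3 or more log2 CPM, 25 had a range of at least 2, and Igha, Igkc and Jchain were among them.

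Most of that range lay between the replicate numbers and little within them. For Igha the means of the 3 numbers spanned 2.90 log2 units, and the libraries of the same number differed by at most 0.15. For Jchain the corresponding values were 3.04 and 0.71, for Igkc 2.92 and 0.59, and for Lyz2 1.48 and 0.23. For Cd79a the difference within a number, up to 0.74, exceeded the span of 0.48 between numbers.

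**Figure D2:**
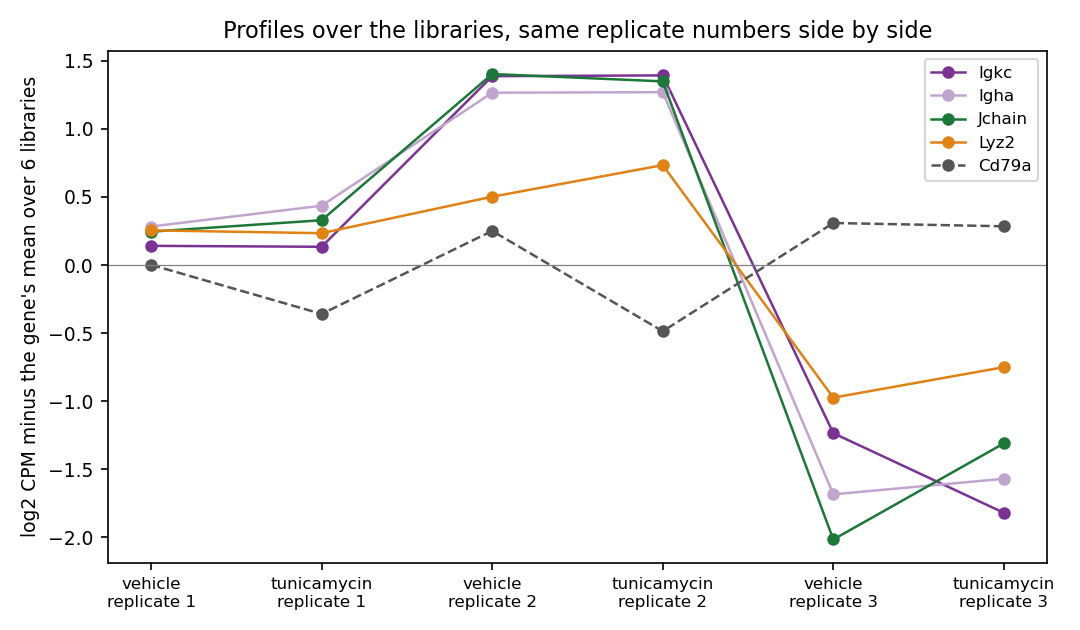
Log2 CPM of each gene minus its own mean over the 6 libraries, with libraries of the same replicate number side by side. Igkc, Igha, Jchain and Lyz2 peak in the libraries numbered 2 and drop in those numbered 3, whereas Cd79a (dashed) is highest there. In vehicle the counting intervals of Cd79a in replicates 2 and 3 overlap.

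How alike the profiles were was measured as the root mean square difference between centred log2 CPM values over the 6 libraries. These are described as technical replicates and are not taken as independent. Igha lay 0.19 from Jchain and 0.26 from Igkc, and Igkc lay 0.39 from Jchain. Lyz2 was further from each of these, at 0.59 (Igha), 0.64 (Igkc) and 0.66 (Jchain). Cd79a was the least like the rest, at 0.88 from Lyz2 and 1.41 to 1.48 from the 3 antibody genes.

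Among the 2458 other genes at that level of expression, the nearest profile to Igha, Igkc and Jchain was in each case Igkv10-96, a kappa variable segment, at 0.28, 0.20 and 0.41. It was at 29.8, 51.2 and 6.97 TPM in vehicle libraries 1, 2 and 3. Its levels in tunicamycin libraries 1, 2 and 3 were 21.5, 53.9 and 4.25 TPM. Thbs1, which encodes the matrix protein thrombospondin 1, followed for Igha and Igkc, and for Jchain came after Pclaf, at 0.64 from Igha, 0.47 from Igkc and 0.77 from Jchain, with 41 to 263 counts. Pclaf, a gene of replicating cells, lay 0.69 from Igha and 0.65 from Jchain, and Smo, the Hedgehog signal transducer, 0.78 from Igkc.

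The profile nearest to Lyz2 was that of Mki67, the proliferation marker Ki-67, at 0.26 and with 312 to 956 counts. Gm4070 followed at 0.29 and Smo at 0.32. In TPM Gm4070 did not have the order of Lyz2, with 35.46, 19.85 and 18.46 in vehicle libraries 1, 2 and 3. Its TPM in tunicamycin libraries 1, 2 and 3 was 17.34, 25.08 and 18.91. For Cd79a the nearest profiles were those of Ddt (0.16), which encodes D-dopachrome tautomerase, of Gm10163 (0.16) and of Trav12d-2 (0.17), a T cell receptor alpha segment.

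Tunicamycin blocks N-linked glycosylation and so induces stress in the endoplasmic reticulum, the organelle in which plasma cells fold antibody. Of the 5 genes 0 passed the edgeR quasi-likelihood test at an adjusted p of 0.05, where 0.083% of all 3613 genes passed (0.0554% higher and 0.0277% lower with tunicamycin). At an unadjusted p under 0.05 there were also 0 of the 5, against 6.42% of all genes. The groups overlapped for 5 of 5 genes, and they did not overlap for 12.6% of all genes. DESeq2 gave an adjusted p for Igha only, and limma on log2(TPM + 1) called 0 of the 5. A fit with the replicate number as a block also called 0 of the 5, where 0.996% of all genes passed.

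The fitted log2 fold change of Igha was 0.06 with an SE of 1.07 (95% interval -2.85 to 2.98, edgeR adjusted p = 0.99). That of Igkc was -0.04 (95% interval -3.03 to 2.94) and that of Jchain 0.05 (95% interval -2.98 to 3.08). These intervals are from the fit without a replicate block and allow a change of several fold either way. That fit could not detect a change of that size. Lyz2 was at 0.15 (95% interval -1.03 to 1.32) and Cd79a at -0.35 (95% interval -1.26 to 0.56), which leave room for a change of 2-fold, for Cd79a in the lower direction alone. The sign of the fold change was decided by single libraries: Igha, Jchain and Lyz2 turned negative without vehicle replicate 3 (-0.41, -0.45 and -0.19) or without tunicamycin replicate 2 (-0.63, -0.71 and -0.23). Jchain also did so without vehicle replicate 1 (-0.03). Igkc turned positive without vehicle replicate 2 (0.81), tunicamycin replicate 1 (0.07) or tunicamycin replicate 3 (0.43). With the replicate number as a block the 95% intervals were narrower, at -0.03 to 0.21 for Igha, -0.43 to 0.09 for Igkc and -0.15 to 0.56 for Jchain. The labels do not say that libraries of the same number are pairs.

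The differences within a replicate number, on the log2 CPM scale, are given beside the fitted fold changes. For Igha, tunicamycin minus vehicle was 0.15, 0.00 and 0.11 in the libraries numbered 1, 2 and 3. For Igkc it was -0.01 and 0.01 in numbers 1 and 2 and -0.59 in number 3. For Jchain it was 0.08 and -0.05 in numbers 1 and 2 and 0.71 in number 3. The libraries numbered 3 thus had less Igkc and more Jchain with tunicamycin, at the lowest levels of both genes.

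In those libraries the counting intervals did not overlap. Igkc was at 66.8 CPM (exact Poisson 95% interval 61.6 to 72.3) in vehicle replicate 3 and at 44.4 CPM (40.6 to 48.6) in tunicamycin replicate 3. Jchain was at 7.52 CPM (5.85 to 9.51) in vehicle and 12.4 CPM (10.4 to 14.7) in tunicamycin. Such intervals cover counting error only, and with 1 library on each side there is no replicate check.

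For Lyz2 the differences were -0.02, 0.23 and 0.22 in numbers 1, 2 and 3. For Cd79a they were -0.36, -0.74 and -0.02, lower with tunicamycin in each number. In number 2 Cd79a had 47 counts in vehicle and 42 in tunicamycin, in a tunicamycin library with more counts in all.

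**Figure D3:**
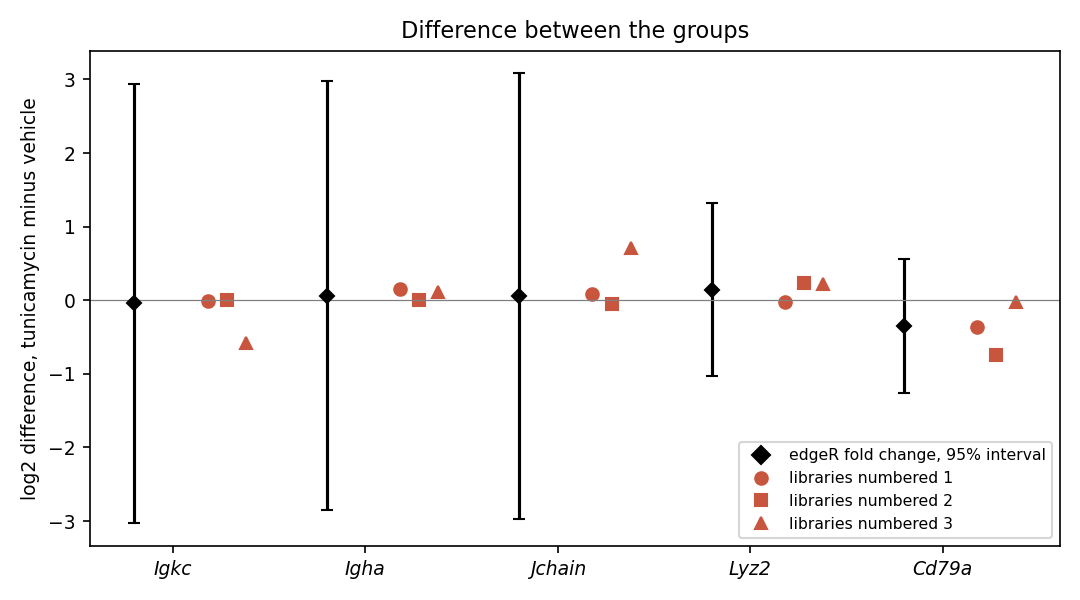
Log2 difference of tunicamycin minus vehicle for each gene: black diamonds are the edgeR fold changes with 95% intervals over 3 libraries a group, red symbols the differences between libraries of the same replicate number. The intervals of Igkc, Igha and Jchain reach about 3 log2 units either way, while the differences within a number stay between -0.59 and 0.71 for these genes.

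The other constant regions were lower and did not all follow Igha. Of 12 listed constant region genes, 10 had a row and 8 were tested, and 0 passed in either direction, with a median log2 fold change of -0.07 beside 0.001 over all genes. Without Igha and Igkc the rows summed to 20.96, 10.5 and 4.305 TPM in vehicle libraries 1, 2 and 3. The sums in tunicamycin libraries 1, 2 and 3 were 16.18, 17.05 and 0.8823 TPM. Igha made up 89.3% to 96.4% of the summed TPM of the heavy chain constant rows, among which IgM and IgG1 were not analysed here. Ighg2c, an IgG2 constant region, was highest in the libraries numbered 2, at 3.68 TPM in vehicle and 5.49 TPM in tunicamycin. In vehicle it was at 2.06 TPM in replicate 1 and listed at 0 in replicate 3, and in tunicamycin at 0.18 and 0.04 TPM in replicates 1 and 3. Ighg2b and Ighg2c are similar in sequence, so the division of their reads is uncertain.

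Iglc1, the lambda 1 constant region, was instead highest in the libraries numbered 1. It was at 12.04, 1.87 and 0.612 TPM in vehicle libraries 1, 2 and 3. In tunicamycin libraries 1, 2 and 3 it was at 10.5, 6.38 and 0.0855 TPM. The share of kappa in the light chain constant TPM was accordingly lowest in number 1, at 88.9% in vehicle and 89.7% in tunicamycin, and lay between 94.9% and 99.7% in the other libraries. Ighg3, named after its values were seen, had a similar profile, with 4.33 and 1.12 TPM in the libraries numbered 1 and 0.0426 to 0.355 TPM in the rest.

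The sums of the variable segments had the libraries in the order of Igha and Igkc, an order that 3 of the 8 tested constant region genes, Igha and Igkc among them, had in both groups. Over the 136 rows of kappa variable segments the summed CPM was 111, 272 and 49.6 in vehicle libraries 1, 2 and 3. In tunicamycin libraries 1, 2 and 3 it was 104, 255 and 26.4. The 76 rows of heavy chain variable segments summed to 27.2, 70.6 and 13.1 in vehicle and to 30.2, 43.2 and 10.4 in tunicamycin, in the same order of replicates.

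The ratio of the deposited count to the deposited TPM rises with the transcript length that the quantification used, and so bears on the form of Igha. For Igha this ratio was 1.21 to 1.23 times the median of 28 genes with a single annotated transcript of 1000 to 1200 bases. It was 0.432 to 0.464 times the median of 23 such genes of 2440 to 2640 bases. The Igha ratio, 28.7 in vehicle replicate 1, was below the lower quartile of the longer genes (50.9) and just above the upper quartile of the shorter ones (28.5) in that library. The values stand nearer to the secreted transcript of 1100 bases than to the membrane transcript of 2540 bases in all 6 libraries, with lengths from an annotation that may not be the one the authors used. The ratio did not follow annotated length for every gene. In vehicle replicate 1 Jchain, with transcripts of 1393 and 2341 bases, was at 19.5, below Igha. Lyz2 (1316 bases) was at 26.3 and Cd79a (1457 bases) at 44.0 there.

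Only part of the plasma cell list had a row, and genes without a row were not analysed here. Of 20 listed genes 10 had a row and 7 were tested, and 0 passed, with a median log2 fold change of -0.25. Creld2, a chaperone-associated protein of the endoplasmic reticulum that T cells also express, was at 11.4 to 15.02 TPM with a range of 0.42 log2. Pou2af1, a coactivator of antibody genes, was at 1.78 to 3.06 TPM, and Derl3, a factor of protein degradation in secretory cells, at 0.213 to 1.498 TPM. Mzb1, a folding factor of B and plasma cells, had 21, 0 and 0 counts in vehicle libraries 1, 2 and 3. In tunicamycin libraries 1, 2 and 3 it had 4, 21 and 0. Tnfrsf17, the survival receptor of plasma cells, had 5 counts in vehicle replicate 2 and was listed at 0 elsewhere. Of the 7 tested genes only 1, Jchain itself, had the order 2, 1, 3 in both groups, beside 4.04% of all genes. Number 2 was highest in both groups for 4 of 7 (15.2% of all genes) and number 3 lowest for 1 of 7 (11.5%). Jchain, chosen by its levels per library, counts in both shares, and nothing is read from them. Without Jchain the plasma cell rows summed to 15.4 to 23.0 TPM, most of it Creld2.

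The B cell genes that had a row were close to the limit of detection. Genes without a row were not analysed here, so nothing is said of B cell genes as a whole. Of 32 listed genes 6 had a row and 2 were tested, Cd79a and H2-Ab1, and 0 passed. H2-Ab1, a chain of the antigen-presenting class II molecule, had 1 count in vehicle replicate 1 and 32 to 51 in the other libraries. The B cell rows without Cd79a summed to 0.0458 to 3.81 TPM.

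The summed level of the macrophage and monocyte rows was lowest in the libraries numbered 3, as for Lyz2, though not every single gene had this pattern. Number 3 was lowest in both groups for 3 of 7 tested genes, beside 11.5% of all genes tested. These were Lyz2, itself chosen by its levels per library, Hmox1, and Cd5l with 6 to 28 counts. Nothing is read from this share. Of 32 listed macrophage and monocyte genes 13 had a row and 7 were tested, and 0 passed, with a median log2 fold change of -0.27. Without Lyz2 the rows summed to 9.58, 10.6 and 4.70 TPM in vehicle libraries 1, 2 and 3. In tunicamycin libraries 1, 2 and 3 they summed to 7.74, 8.17 and 6.40 TPM. Hmox1, the haem-degrading enzyme of splenic macrophages, which other cells also express, was lowest in number 3, at 3.13 and 3.37 TPM, against 3.94 to 5.48 TPM elsewhere. The complement genes C1qa and C1qb went against it in tunicamycin, where C1qa was at 0.349 TPM in replicate 2 and 1.07 TPM in replicate 3, and C1qb at 0.457 and 0.712 TPM.

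Markers of granulocytes, red cells and platelets were at low levels. The neutrophil rows, 8 of 16 listed with 4 tested, summed to 4.44 and 3.45 TPM in the libraries numbered 2 and to 0.239 to 1.07 TPM in the others. Elane, neutrophil elastase, had 35 and 34 counts in the libraries numbered 2 and 0 to 13 in the rest. Number 2 was highest in both groups for 3 of the 4 tested neutrophil genes, beside 15.2% of all genes. The exception was Mmp9, with 7, 6 and 20 counts in vehicle libraries 1, 2 and 3. The erythroid and platelet rows, 9 of 14 listed with 7 tested, summed to 2.52 to 3.52 TPM in the libraries numbered 3 and to 7.61 to 12.9 TPM in the others. Number 3 was lowest in both groups for 3 of the 7 tested genes, beside 11.5% of all genes. Among the rest, Pf4 had 0, 21 and 20 counts in vehicle libraries 1, 2 and 3. In each of these lists 0 genes passed. The dendritic cell list (5 of 12 with a row, 3 tested) and the CD8 T and NK cell list (6 of 11, 5 tested) also had 0 genes past the threshold. Their summed levels were higher, at 55.7 to 72.0 TPM for the dendritic cell rows and 21.1 to 29.0 TPM for the CD8 T and NK cell rows. Most of the dendritic cell sum was Cst3 and Bst2, with means of 39.9 and 23.6 TPM and ranges of 0.42 and 0.22 log2. Xcr1, the third tested gene of that list, had a mean of 0.52 TPM. At an unadjusted p under 0.05 in edgeR there were 2 T cell genes, 1 gene of the CD8 T and NK cell list and 0 of every other list.

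The T cell genes, by contrast, were high and even. Of 16 listed genes 8 had a row and all 8 were tested, 0 passed, and the median range over the 6 libraries was 0.18 log2. Cd3e, a chain of the T cell receptor complex, had a mean of 588 TPM and Cd3d 238 TPM. Summed TPM over the T cell rows ran from 2928 to 3215, with the lowest sums, 2928 and 2985, also in the libraries numbered 3. On log2 CPM number 3 was lowest in both groups for 4 of the 8 genes, beside 11.5% of all genes tested. Low libraries numbered 3 were thus not particular to the lists of other cells. Cd4 and Trac were not analysed here. Cd8b1, of CD8 T cells, had a mean of 10.7 TPM and a range of 0.32 log2, so it did not share the spread of the antibody genes.

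**Figure D4:**
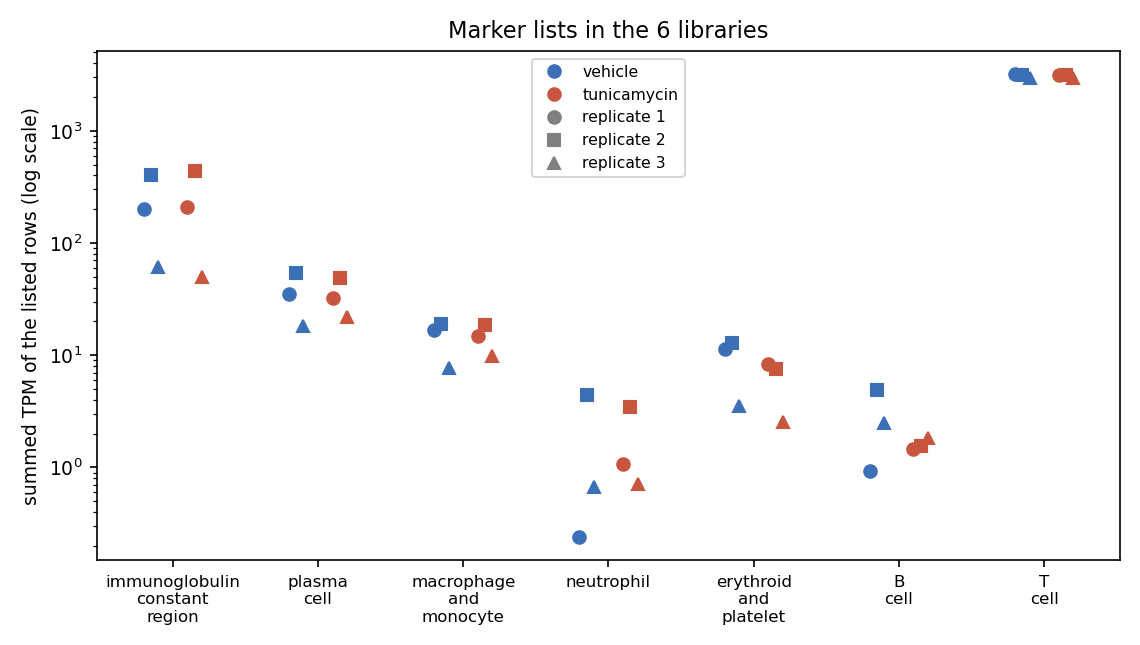
Summed TPM of the rows of each marker list (log axis) in the 6 libraries; colour gives the group and shape the replicate number. The immunoglobulin constant region list spans 49.3 to 439 TPM and is highest in replicates 2, mostly through Igha and Igkc. Without these genes its sum in vehicle is highest in replicate 1. The T cell list stays between 2928 and 3215 TPM.

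The levels of the antibody genes and Lyz2 thus moved with the replicate number, as did the sums of the variable segments. The neutrophil sum was highest in number 2 and the erythroid, macrophage and T cell sums lowest in number 3, in both groups. Single genes of these lists did not all have the pattern of the sum. The part that cell types other than T cells have in the tests of tunicamycin was not tested.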

How the data were processed

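The submitters' processing notes name Salmon, bcl2fastq, DESeq2 and GRCm39, without role or version. What the authors deposited per gene is an estimated count, partly fractional and not scaled to depth, and a TPM value. Which transcript annotation they used is not given in the sources used here. Of 13685 rows, 13627 matched a symbol, and 6932 were at 0 in every library. TPM of these rows sum to 319120 to 332870 per library, so they are part of the transcriptome.

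The estimated counts were rounded. The test was that of edgeR 4.0.16 (R 4.3.3): filterByExpr on the groups, TMM scaling, the robust quasi-likelihood F test, 2-sided, with Benjamini-Hochberg adjustment over 3613 genes and a threshold of 0.05. Alternatives used other scalings and filters, DESeq2 1.42.0, limma 3.58.1 on TPM, a replicate block, and each library left out. The genes, lists and measures were chosen with earlier results of these data known. The text names the 5 genes, up to 4 genes per list past the threshold or else those of highest mean TPM, the 3 nearest profiles of each, and Cd3e and Cd3d as a check of the label. Others, such as Mzb1, Tnfrsf17, Ighg3 and Lyz1, were chosen after their values were seen.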

Additional observations from a re-analysis of the deposited data

How the results depend on the processing

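For the 5 genes, 81 alternative fits gave 0 calls, with adjusted p from 0.642 to 1, and 71 kept the direction. The sign turned in 10, all with a library left out. Over the 6 fits with a library left out, the log2 fold change of Igha ran from -0.63 to 0.85, Igkc from -0.9965 to 0.81, Jchain from -0.71 to 0.99, Cd79a from -0.64 to -0.20 and Lyz2 from -0.23 to 0.46. Over all alternatives that of Cd79a reached -0.14, in limma on log2(TPM + 1). Without vehicle replicate 2 or tunicamycin replicate 2 the antibody genes moved most. With a replicate block the log2 fold changes were 0.09 for Igha (95% interval -0.03 to 0.21), -0.17 for Igkc (-0.43 to 0.09), 0.21 for Jchain (-0.15 to 0.56), 0.15 for Lyz2 (-0.27 to 0.56) and -0.39 for Cd79a (-1.36 to 0.59), so 0 of 5 passed, where 0.996% of all genes did. Deviations of same-numbered libraries from their group means correlated over 3613 genes, which are not replicates, at 0.037, 0.187 and 0.107 for numbers 1 to 3; every library correlated best with its own number, a hint from the data and not from the design, and the numbers are not taken as pairs. The range of Cd79a was 0.80 log2 CPM and 0.36 on log2(TPM + 1), where the added 1 compresses low values. Over all genes, 2 were higher and 1 lower. The counts were 14 and 22 of 3613 genes with the replicate block and 4 and 16 of the 601 genes with an adjusted p in DESeq2. They were 10 and 6 of 6753 genes without a filter, and 0 and 1 of 2687 with at least 20 counts in each library. They were 2 and 2 with DESeq2 size factors, 2 and 0 with no composition factor or without robust estimation, 1 and 0 in limma on log2(TPM + 1) with either filter, 2 and 0 on log2(TPM + 0.1), and 1 to 4 and 0 to 1 with a library left out. Without vehicle replicate 3 the count of higher genes was 4, and without vehicle replicate 2 it was 1. The cause of these differences was not tested. Depth limits Cd79a, with 39 to 71 counts per library.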

Other observations

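Other granulocyte transcripts, chosen after their values were seen, stood out in the libraries numbered 2. Ctsg, which encodes cathepsin G of neutrophil granules, had 22 counts in vehicle replicate 2 and 29 in tunicamycin replicate 2, against 1 to 4 in the other 4 libraries. Prg2, the major basic protein of eosinophils, which also stands in the plasma cell list, had 48 and 39 counts in the libraries numbered 2 and 0 to 13 elsewhere. Ngp, a neutrophil granule protein, had 51 and 30 counts there and 0 to 10 elsewhere. These counts are low, and the difference between replicate numbers was not tested.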
